A study of Mus musculus with 17 samples.

Results

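A group of 6 neighbouring genes on mouse chromosome 6, Chl1, Cntn6, Cntn4, Il5ra, Setmar and Itpr1, carried 14 of the 258 distinct variant sites in an exome study of pancreatic tumours, and all of these sites were called in 1 animal. The genes were chosen by name, because an earlier look at the same calls had shown them side by side, and every call in them is included. They make up 6 of 209 genes with a call and 28 of 390 calls. The calls come from 11 pancreatic tumours of 6 mice, each tumour set against a pancreatic control sample of the mouse with the same number. The series concerns loss of function of the glucagon receptor gene GCGR and tumours that arise from pancreatic alpha cells. The labels give tissue and mouse number, and the treatment field reads none. Genotype, strain, age and sex of the animals do not appear in the labels used. The groups that matter below are the 2 tumours of mouse 2, and the 1 control sample of mouse 2.

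Chl1, Cntn6 and Cntn4 belong to the immunoglobulin superfamily of neural cell adhesion molecules. Chl1, the close homologue of L1, spans the membrane and has a cytoplasmic tail. Contactins carry immunoglobulin domains followed by fibronectin type III domains and are held to the membrane by a lipid anchor. They act in axon growth and synapse formation. Il5ra encodes the ligand-binding chain of the interleukin 5 receptor, which is known from eosinophils and B cells. Setmar encodes a histone methyltransferase, which in anthropoid primates but not in mice is fused to a transposase. Itpr1 encodes an inositol trisphosphate receptor, a channel that releases calcium from the endoplasmic reticulum. Inbred mouse strains differ at many known positions, which databases list under rs identifiers, and neighbouring differences are inherited together, whereas a somatic mutation is a change acquired by a single cell and its descendants. The allele fraction is the share of reads with the alternate base. For a site altered on 1 of 2 chromosome copies in every cell of a sample, tumour or control alike, it is expected to be 50%. Whether the sites below were inherited or acquired was not tested, since strain genotypes and read depths are not used here.

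All 14 sites were called in both tumours of mouse 2, and 0 were called in the other 9 tumours. Over all 46 sites of mouse 2, the share called in both tumours was 73.9%, and outside these genes it was 20 of 32 sites. Because the genes were picked from these calls, the difference between mouse 2 and the other mice is part of how they were chosen and has no test. All 14 sites carried an identifier of a variant database. Over all 258 sites the share with an identifier was 13.6%, and among the 244 sites outside these genes it was 8.61% (21 sites). Of those 21, 16 were also in mouse 2, which had 30 identified sites in all. Of these 16 other identified sites of mouse 2, 15 were likewise called in both tumours. All 28 calls had the deposited genotype 0/1, the code for 1 reference and 1 alternate allele. How many of all 390 calls have this code is not given here, so it says nothing particular about these sites.

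The sites lay between positions 103711153 and 108485235 of chromosome 6, an interval of 4.77 Mb. Positions are as deposited, and all 14 fall inside the RefSeq span of their gene in the mouse build GRCm38. The sites were unevenly spaced: the smallest gap between neighbours was 94 bases, the median 80443 bases and the largest 1.51 Mb. This spacing was not compared with that of the exons of the interval. The interval overlaps 10 protein-coding genes of RefSeq, and 4 of them had 0 calls. These were Trnt1, which encodes a tRNA-finishing enzyme, Crbn, a substrate receptor of a ubiquitin ligase, Lrrn1, a leucine-rich repeat protein of neurons, and Sumf1, an activator of sulfatases. They are named for their position, after the calls had been seen. The table lists 0 synonymous calls, so a gene without a call is not shown to match the reference. The nearest calls on either side both belonged to mouse 1: the frameshift Q788fs in Tet3, 20.3 Mb before the first site, and a call in Clec2d, 20.7 Mb after the last. Mouse 2 had 14 sites on chromosome 6 in all, which are the 14 sites described here.

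**Figure D1:**
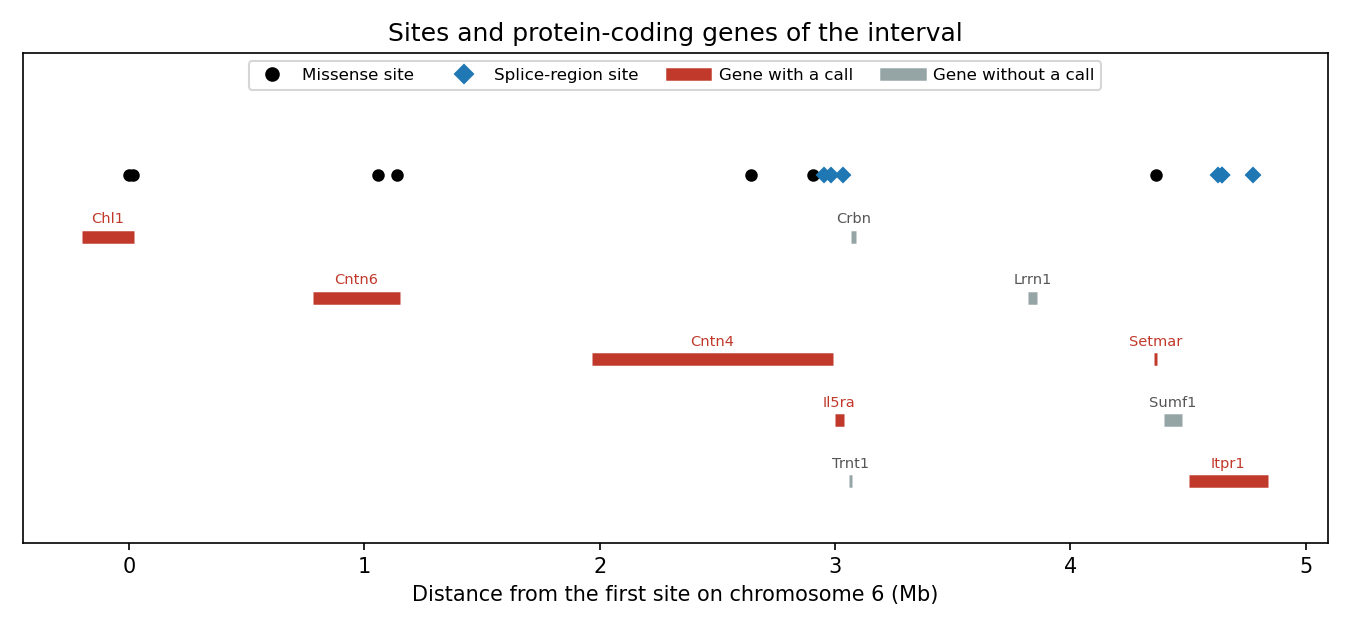
Sites in mouse 2 (symbols in the top row; circles are missense and diamonds splice-region sites) and the 10 protein-coding genes of the interval (bars, red with and grey without a call), plotted by distance in Mb from the first site. The sites extend over 4.77 Mb, and the 4 genes without a call lie between Il5ra and Itpr1.

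Chl1 (ENSMUSG00000030077, chromosome 6, 103510584 to 103733038, forward strand) held 2 missense sites. S985A, a T-to-G change at 103711153 (c.2953T>G), replaces a serine at residue 985 of 1209. Its allele fraction was 56% in tumour 1 and 37.5% in tumour 2, against 3.23% in the control. This was the highest control fraction among the 14 sites. A1203T, a G-to-A change at 103729312 (c.3607G>A), puts threonine for alanine 6 residues before the end of the protein, in the cytoplasmic tail. Its fraction was 33.3% in tumour 1 and 34.5% in tumour 2, against 0 in the control. The fractions of the 2 tumours lay 18.5 percentage points apart at S985A and 1.15 points apart at A1203T, although the sites are 18159 bases from each other.

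Cntn6 (ENSMUSG00000030092, 104492662 to 104863406, forward strand) also held 2 missense sites, 80443 bases apart. K262R, an A-to-G change at 104767732 (c.785A>G), exchanges a basic residue for another at residue 262 of 1028. Its fraction was 36.4% in tumour 1 and 42.9% in tumour 2, against 0 in the control. L892P, a T-to-C change at 104848175 (c.2675T>C), puts a proline at residue 892, 136 residues before the end. Its fraction was 34.3% in tumour 1 and 45.2% in tumour 2, against 0 in the control. Both Cntn6 sites were higher in tumour 2, and all 4 fractions stayed below 50%.

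Cntn4 (ENSMUSG00000064293, 105677632 to 106700141, forward strand), the longest of the 6 genes, held 4 sites, all with a control fraction of 0. I64L, an A-to-T change at 106353612 (c.190A>T), had a fraction of 65% in tumour 1 and 40.3% in tumour 2. These 24.7 points were the largest gap between the tumours at any of the 14 sites, and 65% was the highest fraction. The call in tumour 1 was 1 of 2 calls of the 28 in the deposited tier 2; the other was in Itpr1. I493V, an A-to-G change at 106618400 (c.1477A>G), had the lowest fraction, 29.6% in tumour 1, and 43.9% in tumour 2. The missense sites of Cntn4 thus differed between tumours in opposite directions. Both exchange isoleucine for another aliphatic residue of the 1026-residue protein.

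The other Cntn4 sites lay in introns close to an exon. The deletion of a C 6 bases into an intron, at 106662697 (c.1783+6delC), was the only insertion or deletion among the 14 sites. Its fraction was 40.9% in tumour 1 and 43.2% in tumour 2. The C-to-T change 8 bases into an intron, at 106694445 (c.2980+8C>T), had 46.3% in tumour 1 and 37.8% in tumour 2. At these intronic sites the tumours lay 2.33 and 8.46 points apart, less than at either missense site of the gene.

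Il5ra (ENSMUSG00000005364, 106710375 to 106749037, reverse strand) held 1 site, a G-to-A change at 106744348 that reads C-to-T on the gene's own strand (c.-12C>T). It lies 12 transcript bases before the start codon, in the 5′ untranslated region, and is annotated as a splice-region site. Its fraction was 62.5% in tumour 1 and 50% in tumour 2, against 0 in the control. Averaged over the tumours it was 56.3%, the highest such mean of the 14 sites, and it was the only site at which neither tumour lay below 50%.

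Setmar (ENSMUSG00000034639, 108065045 to 108077127, forward strand), the shortest of the 6 genes, held 1 missense site. S273R, a T-to-G change at 108076365 (c.819T>G), puts a basic residue for serine 36 residues before the end of the 309-residue protein. Its fraction was 41.9% in tumour 1 and 37.8% in tumour 2, against 0 in the control.

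Itpr1 (ENSMUSG00000030102, 108213083 to 108551116) held 4 sites, all single-base changes in introns within 8 bases of an exon, and 0 missense sites. The T-to-C change at 108339502 (c.164-5T>C) had a fraction of 37.2% in tumour 1 and 37.9% in tumour 2, against 0.943% in the control. The C-to-T change at 108356291 (c.708+8C>T) had 51.3% in tumour 1 and 45.2% in tumour 2, against 0 in the control. The G-to-T change at 108356385 (c.709-6G>T) had 35% in tumour 1 and 35.1% in tumour 2, against 0 in the control. This pair lies 94 bases apart at opposite ends of the same intron of 107 bases, and the fractions at its ends differed by more than those of the 2 tumours at either end. The C-to-A change at 108485235 (c.6265-8C>A) had 37.8% in tumour 1 and 39.7% in tumour 2, against 0 in the control. Of the 8 Itpr1 fractions, 1 exceeded 50%.

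**Figure D2:**
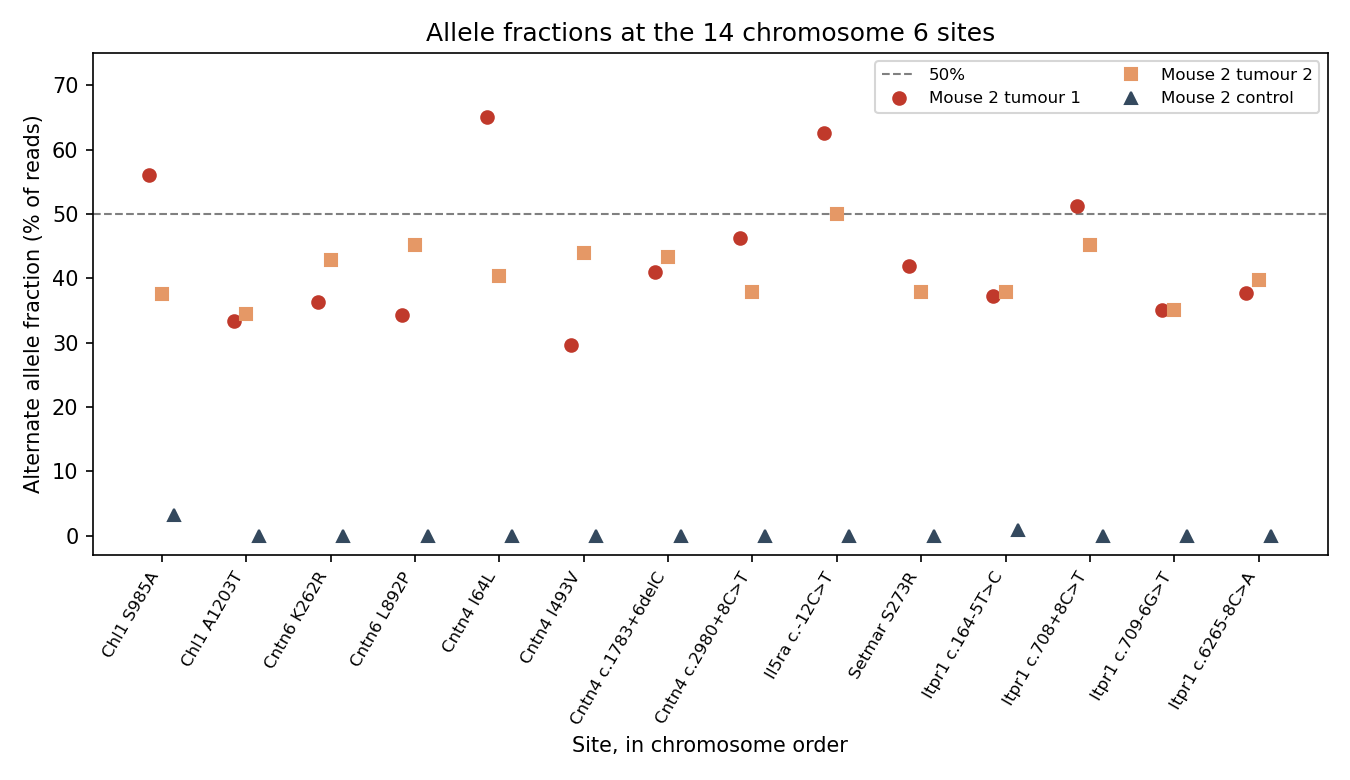
Alternate allele fraction in percent of reads at the 14 sites in chromosome order, for tumour 1 (circles), tumour 2 (squares) and the control (triangles) of mouse 2, with a dashed line at 50%. The tumours lie between 29.6% and 65% and the control between 0 and 3.23%, and most tumour points are under the line.

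Over the 14 sites the tumours ranged from 29.6% to 65%, against 0 to 3.23% in the control, so the samples did not overlap at any site. Calls are selected for being higher in a tumour than in its control, so this direction is set by the selection and has no test. The control was at 0 for 12 of the 14 sites, and at the other 2 the tumour fraction was at least 11.6 times the control fraction. At every site the control thus lay far below the 50% of 1 altered copy in every cell. That the tumours and the control come from the same animal rests on the mouse number in the labels and was not tested.

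Against the 50% of 1 altered copy, most fractions were lower. Of the 28 tumour fractions, 23 lay below 50%, 1 at 50% and 4 above it. The mean over sites was 43.4% ± 11.2 in tumour 1 and 40.8% ± 4.41 in tumour 2 (SD over 14 sites of the same animal), and the medians were 39.3% and 40.02%. In tumour 2, 13 of 14 sites were below 50% and none above, while in tumour 1, 10 were below and 4 above. Of the 28 fractions, 27 lay between 30 and 70% and 12 between 40 and 60%. The average distance from 50% was 10.4 points. Linked sites in 2 tumours of 1 mouse are not independent samples, so no test against 50% is given, and without read depths the counting error of each fraction is unknown.

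The tumours did not order the sites alike. The fraction was higher in tumour 2 at 8 sites and in tumour 1 at 6. The mean difference, tumour 2 minus tumour 1, was -2.60 points (SD 10.8 over 14 sites), smaller than its spread. With tier 1 calls only it was -1.14 points over 12 sites, without I64L of Cntn4 and its gap of 24.7 points. Across the 14 sites, which share both libraries, Pearson's r between the tumours was 0.29 and Spearman's rho 0.15, given as a description. Across the 8 identified sites of chromosome 18 in the same libraries they were 0.08 and 0.05, also low. The tumours were within 5 points at 6 sites and over 10 points apart at 5. All 5 of the latter were in Chl1, Cntn6, Cntn4 and Il5ra. In these 4 genes the mean absolute gap was 11.0 points over 9 sites, against 2.60 points over the 5 sites of Setmar and Itpr1. By kind of site it was 11.4 points at the 7 missense and 4.61 points at the 7 splice-region sites. Both splits were made after the values were seen and have no test.

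Of the 14 sites, 7 were missense and 7 were splice-region sites outside the coding sequence, and 0 were stop, frameshift or canonical splice donor or acceptor changes. Over all 258 sites the share of such splice-region sites was 8.91%, and outside these genes it was 6.56% (16 of 244). Among the 21 identified sites outside these genes, 2 were of this kind. Both were among the 8 identified sites of chromosome 18 in mouse 2, a share of 25%. Over all 46 sites of mouse 2 the share was 21.7%. The missense changes lay at the first codon base in 4 cases, the second in 2 and the third in 1. They were spread along the proteins, from residue 64 of Cntn4, 6.24% of the way along, to residue 1203 of Chl1. Of the missense changes, 4 lay beyond 80% of the protein length: both of Chl1, L892P of Cntn6 and S273R of Setmar. The matching share for missense sites of other genes is not given here, so this count shows no excess and was not tested.

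Read from the pyrimidine of each base pair, the 13 single-base sites comprised 4 C-to-T, 4 T-to-C, 2 C-to-A, 2 T-to-G and 1 T-to-A changes, with 0 C-to-G changes. Transitions, the exchanges within purines or within pyrimidines, made up 8 of 13 (61.5%). They made up 14 of 31 single-base sites elsewhere in mouse 2 (45.2%) and 107 of 210 in the other 5 mice (51.0%). C-to-G changes numbered 6 of 31 elsewhere in mouse 2 and 16 of 210 in the other 5 mice (7.62%). With 13 sites a share moves by several points per site, and these differences were not tested.

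Within mouse 2 the chromosome 6 sites can be set beside the other 20 sites called in both tumours. The most similar group was the 8 identified sites in 5 genes of chromosome 18. Median fractions were 39.3% in tumour 1 and 40.02% in tumour 2 on chromosome 6, against 47.4% in tumour 1 and 46.3% in tumour 2 on chromosome 18. The chromosome 6 medians were thus the lower ones in both tumours, by a difference (chromosome 6 minus chromosome 18) of -8.11 points in tumour 1 and -6.28 points in tumour 2. By means over sites the same difference was smaller, -4.87 points in tumour 1 and -4.89 points in tumour 2. The chromosome 18 fractions also lay closer together, from 38.7 to 52.7%, with 15 of 16 between 40 and 60%. The SD of the difference between tumours was 10.8 points on chromosome 6 and 4.12 points on chromosome 18, a ratio of 2.62. Sites on 1 chromosome are linked and both groups come from the same animal, so the difference has a size but no test.

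The 7 identified sites on other chromosomes had medians of 50% in both tumours, and a range of 22.7 to 100%. The 5 sites without an identifier that both tumours carried had medians of 52.9% in tumour 1 and 45.3% in tumour 2, with a range of 12.5 to 100%. The chromosome 6 fractions lay inside both of these ranges. The SD of the difference between tumours was 9.38 points at these identified sites and 8.26 points at those without an identifier. The ratios of the chromosome 6 SD to these were 1.15 and 1.31, so the larger ratio above goes with the narrow spread on chromosome 18. The 12 sites called in 1 tumour of mouse 2 had fractions of 2.02 to 23.9%, all below the lowest chromosome 6 fraction. Reads with the alternate base were present in the control at 2 of 14 chromosome 6 sites, at 5 of the 20 other shared sites and at 8 of the 12 sites called in 1 tumour.

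**Figure D3:**
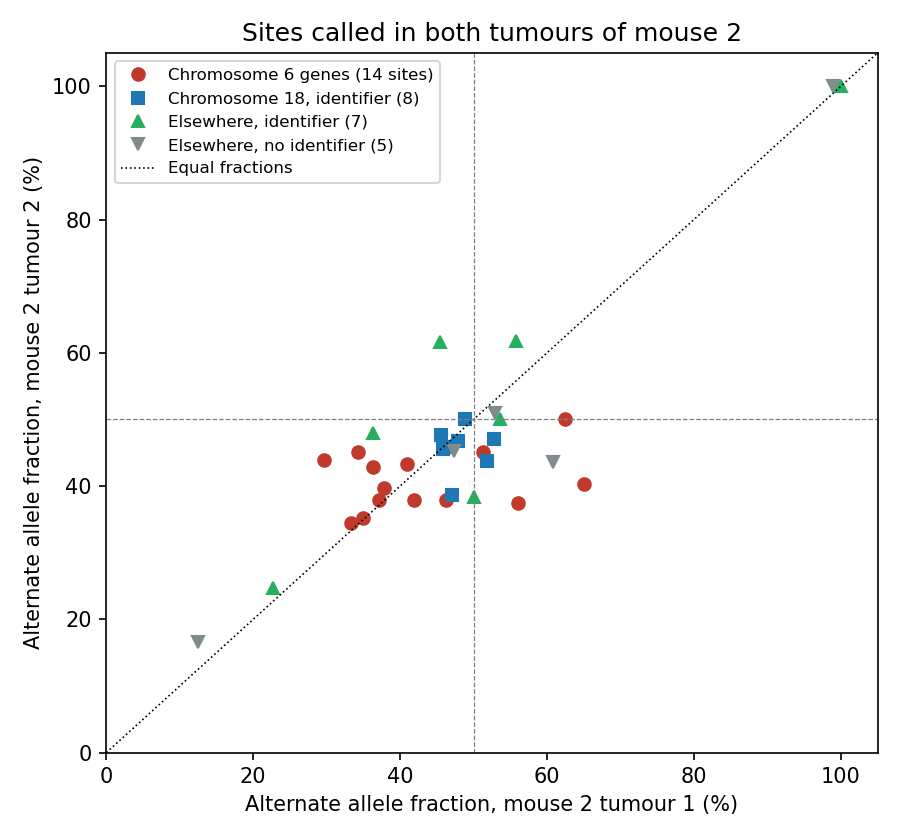
Alternate allele fraction in percent in tumour 1 (horizontal axis) and tumour 2 (vertical axis) of mouse 2 for the 34 sites called in both, by group of sites, with dashed lines at 50% and a dotted line of equal fractions. The 14 chromosome 6 sites (circles) span 29.6 to 65% in tumour 1 and 34.5 to 50% in tumour 2, while the 8 chromosome 18 sites (squares) lie closer to the crossing of the 50% lines.

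Other genes related to the 6 by family or pathway, not all of them known to work with the 6, were taken from 4 lists. Of their 57 genes, 1 had a call in any tumour (1.75%), near the 0.849% of all 21900 RefSeq protein-coding genes, so the count says nothing particular about these lists. It was among the 19 other genes of a list of neural immunoglobulin-type adhesion molecules and their partners. This was Ptprz1, a receptor phosphatase that binds contactins, also on chromosome 6 but 80.7 Mb away and in mouse 1. It had 4 missense sites, none with an identifier and all with a control fraction of 0. V1375I was at 12.2% in tumour 1 and 19.3% in tumour 2 of mouse 1, and M1507T was at 10% in tumour 1 and 19.6% in tumour 2. R1440K at 37.9% and S1848R at 12.8% were called in tumour 2 of mouse 1 alone. Of 11 other genes around the interleukin 5 receptor, 19 of inositol trisphosphate signalling and calcium release, and 8 of end joining and SET-domain methylation, 0 had a call. Contactins other than Cntn4 and Cntn6, and the other inositol trisphosphate receptors, also had 0 calls.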

How the data were processed

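Exomes of 17 samples (11 tumours and 6 controls) were sequenced after capture with a kit that the labels call a human exome kit, although all samples are mouse. The submitters' processing notes list BWA and GATK, with no version or role, and the human build GRCh38. Calls were made with Strelka and carry mouse Ensembl gene identifiers, per the file headers and cells. The authors deposited allele fractions from 0 to 1 for the tumour and, by its column name, the matched control, printed here as percentages. The deposited score columns are a tier (26 of the 28 calls in tier 1) and a site quality, present at 8 of the 14 sites, whose scale is not stated. Depth cells are empty, so no interval is given. Of 402 lines, 12 were empty and are not analysed here. How candidate sites were filtered before deposit is not given in the sources used here.

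Calls were selected by gene name. Summaries were computed with pandas 2.3.3 and checked on simulated calls. No hypothesis test was run, because the genes were chosen from these calls and lie in 1 mouse. The genes, lists of related genes and alternatives were chosen with earlier results of these data known. Every site of the 6 genes is named. Gene spans are from the RefSeq annotation of GRCm38. No sequence around the sites was used here.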

Additional observations from a re-analysis of the deposited data

Results flagged for a closer look

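Over the 6 mice, mouse 2 stood far from the others for their range in the number of sites in the 6 genes (14, and 0 in each of the other 5 mice) and in the number of sites with a database identifier (30, next 3). Such a gap arises by chance in about 1 in 20 groups of normally distributed values, but the genes were chosen for the first count and 14 of the 30 sites are theirs, so that rate does not apply.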

How the results depend on the processing

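Of 75 recomputations under other settings, 71 gave a value, and 4 could not because they needed the tumour that was left out. The SD of single sites is too wide a yardstick to show that a median or mean over 14 sites is stable, so ranges are given. With protein-altering calls only, the number of sites and the number called in both tumours fell to 7 each, since the 7 splice-region sites were left out by construction. With a control fraction of 0 only, both numbers were 12. With tier 1 calls only, the number called in both tumours was 12. Over all alternatives the median fraction was 36.4 to 39.3% in tumour 1 and 40.02 to 41.6% in tumour 2, transitions made up 57.1 to 63.6%, and the median over the 6 genes minus that over the other shared sites of mouse 2 was -8.87 to -7.51 points (-7.77 with all calls). The mean difference, tumour 2 minus tumour 1, was -2.60 to -1.14 points. The smaller size came with tier 1 calls only, which left out I64L of Cntn4, the site with the largest gap. Leaving out either tumour of mouse 2 kept 14 sites and gave a mean distance from 50% of 9.21 to 11.6 points. No paired analysis was possible because no result comes from a test, and because the replicate numbers count tumours within a mouse and each mouse has a single control, so a fit with them as a block cannot be made. The tumours of mouse 2 were instead set side by side at each site. Read depth, which would set the precision of each fraction, is unknown.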
